A study of Mus musculus with 8 samples.

Results

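Small non-coding RNA genes contributed 262 of the 56483 alternative polyadenylation sites (APSs) counted in mouse gastrocnemius muscle. They were the APSs that the count table assigns to genes of the biotypes miRNA, scRNA, snoRNA, snRNA, telomerase_RNA, tRNA and Y_RNA. Beyond the 16 reads over all libraries that every counted APS needed, there was no choice by level or response. The set held 91 tRNA APSs (84 of nuclear and 7 of mitochondrial genes), 84 snoRNA APSs (52 box C/D, 30 box H/ACA and 2 of neither family by name), 74 miRNA APSs, 8 snRNA APSs, 2 scRNA APSs, 2 Y_RNA APSs and 1 telomerase_RNA APS. All 262 lay on the strand of their gene.

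The libraries were made by WTTS-seq, which captures the 3′ ends of poly(A)+ RNA fragments, from 2 AMPKα1 KO mice, 2 AMPKα2 KO mice and 2 WT mice for each model, with 1 library per mouse. AMPKα1 and AMPKα2 are the alternative catalytic subunits of AMP-activated protein kinase, an energy sensor of the cell, and each KO line lacks 1 of them. All 8 mice were male. The KO mice were about 6 weeks old in the AMPKα1 model and about 8 weeks old in the AMPKα2 model, and no age was given for the WT mice. The sample labels give C57BL/6 for every mouse, whereas the study's methods place AMPKα1 KO in 129S2/SvPas. Model, age and strain (as the methods give it) cannot be told apart, and the sources do not say whether the libraries of both models were prepared together. Whether mice of 1 group shared a litter is not given, so the p-values measure the spread between these libraries. In bulk muscle, fewer cells of a type and less RNA per cell cannot be told apart.

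Most of these small RNAs are not made with the poly(A) tail of an mRNA. MiRNAs are cut from hairpins by Drosha and Dicer, most snoRNAs are trimmed from spliced introns of host genes, tRNAs, 7SK, 7SL and Y RNAs are products of RNA polymerase III, and mitochondrial tRNAs are excised from long polycistronic transcripts. Short oligo(A) tails are known to be added to such RNAs during trimming or decay by poly(A) polymerases outside the cleavage and polyadenylation machinery.

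The sequences below were chosen because the sites of these miRNAs fell at or within a few bases of a mature end, and because they show which members share a seed (bases 2 to 8, in capitals). They were taken from RefSeq (GRCm38.p6). The first 3 share the let-7 seed, which directs repression of many growth regulators. MiR-206 carries the seed of the muscle miRNA family, and miR-23a comes from the miR-23a, miR-27a and miR-24-2 cluster.
let-7d-5p, chr13:48536078-48536099, minus strand: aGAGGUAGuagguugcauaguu
let-7c-5p of Mirlet7c-2, chr15:85706616-85706637, plus strand: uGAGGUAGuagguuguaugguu
miR-98-5p, chrX:151913229-151913250, plus strand: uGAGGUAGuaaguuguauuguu
miR-206-3p, chr1:20679055-20679076, plus strand: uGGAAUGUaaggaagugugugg
miR-23a-3p, chr8:84208563-84208583, plus strand: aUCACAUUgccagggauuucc

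The Mir206 site, at position 20679079 of chromosome 1, was 3 bases past the end of miR-206-3p. The longest mapped read listed for that site in the study's supplementary material had 28 bases, of which a run of 21 (in capitals) equals the mature miRNA from its base 2 on.
Mir206 longest read: gggGGAATGTAAGGAAGTGTGTGGtaat

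The last 30 bases of 6 further RNAs, from GENCODE transcripts on GRCm38, show the end at which the sites of the other classes lay. Capitals mark CTGA, the D box of box C/D snoRNAs, ACA, the 3′ box of box H/ACA snoRNAs, and TTT at the end of RNA polymerase III transcripts.
Snord13, chr8:31149864-31149893, minus strand: ttacgacgtgggcacattacccgtCTGAca
Snord93, chr5:23852251-23852280, plus strand: gtgatgggttaaaggatttacCTGAggcca
Snora7a, chr6:115807975-115808004, minus strand: ctggtgattggaagacactctgcaACAtta
Snora65, chr2:32963391-32963420, plus strand: tggctctgtgccgaaagcatgggaACAgcc
Rn7sk, chr9:78175303-78175332, minus strand: ggcgctgcatgtggcagtctgcctttcTTT
Rny3, chr6:47781696-47781725, plus strand: gctcccactgcttcacttgaccagcctTTT

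The site lay 0 bases past these ends for Snord13 and Snora7a, 1 base past them for Snord93, Rn7sk and Rny3, and 4 bases past for Snora65. Of 48 box C/D APSs within 10 bases of a GENCODE transcript end, 47 (97.9%) had CTGA on the RNA strand in the last 30 bases of that transcript, against 14.0% of all 141722 GENCODE transcripts. In the last 10 bases CTGA was found for 32 of the 48 (66.7%), against 4.70% of all transcripts. Of 27 box H/ACA APSs, 26 (96.3%) had ACA in the last 10 bases, against 14.4% of all transcripts. TTT was found in the last 10 bases of 17.7% of all transcripts. These matches describe the annotated ends and overlap in part between classes, with ACA also in the last 10 bases of 8 of the 48 box C/D transcripts.

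Most small RNA APSs lay at the 3′ end of their gene. A gene span was found for 254 of the 262, and 161 of them (63.4%, Wilson 95% interval 57.3% to 69.1%) were within 10 bases of the 3′ end. The genes of these 254 APSs were 45 to 397 bases long, with a median of 77, so a site inside one is never far from its end. Sites past the end lay up to 1934 bases from it. The same share was 16.3% among 42786 other APSs on the strand of a gene with a span, whose genes were not matched for length. Within 10 bases lay 48 of 52 box C/D sites, 27 of 30 box H/ACA sites, 60 of 77 nuclear tRNA sites and 11 of 74 miRNA sites. All 60 nuclear tRNA sites near the end were downstream of it, with a median over the 77 of 4 bases past the tRNA gene, whereas the median was 2 bases past for box C/D and 1 base past for box H/ACA genes. Positions of multicopy tRNA genes, and of Rn7s1 and Rn7s2, depend on how the aligner placed reads that match near-identical copies.

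**Figure D1:**
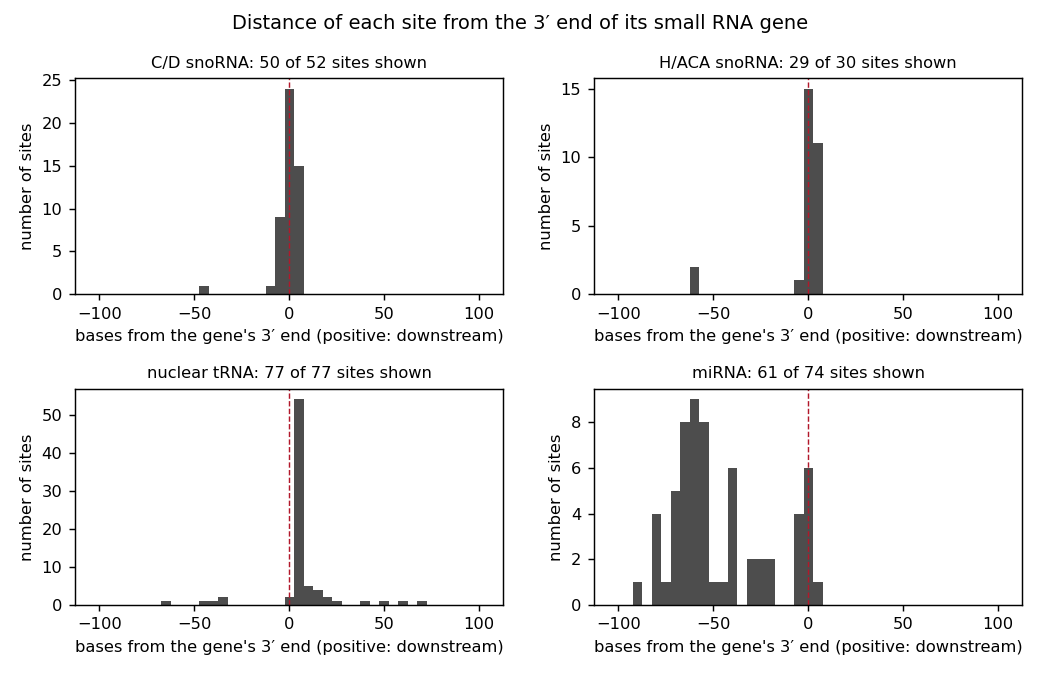
Histograms of the distance in bases from the 3′ end of the small RNA gene to its site (x axis, positive downstream) against the number of sites (y axis) for 4 classes, for sites within 100 bases. Box C/D, box H/ACA and nuclear tRNA sites pile up at the gene end, and miRNA sites lie mostly upstream, inside the hairpin.

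Many miRNA sites lay close to an end of a mature miRNA. Such ends are never far from a site inside a short hairpin, and no expected share was worked out. Of the 62 miRNA APSs whose gene had a mature sequence in the RefSeq table, 18 were within 5 bases of the 3′ end of the 5p miRNA, 8 within 5 bases of the 3′ end of the 3p miRNA, and 14 within 5 bases of the start of the 5p miRNA. The first group held 10 sites of let-7 family genes. The 3p group held Mir206, Mir23a, Mir455, Mir140, Mir677, Mir6516, Mir1843a and Mir3068, and 7 of these 8 sites were also within 5 bases of the hairpin end. A further 21 of the 62 sites lay elsewhere or more than 100 bases downstream. Mir1a-1, Mir27a and Mir30a were in the group at the 5p start. Over all 74 miRNA APSs, 13 lay more than 100 bases downstream of the hairpin, up to 1934 bases for a Mir24-2 site.

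Some members annotated as miRNA genes overlap another small RNA. On the same strand, 7 miRNA APSs belonged to hairpins that overlap a snoRNA or scaRNA (small Cajal body RNA) of GENCODE, and their sites lay between 1 base before and 6 bases past the end of that RNA. They were Mir1839, Mir677, Mir6516, Mir1949, Gm24148, Mir1843a and Mir3068. Gm24148 had the most reads of them, 1754 in the AMPKα2 libraries. Reads at these sites cannot be assigned to the miRNA or to the overlapping RNA.

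The 7 mitochondrial sites lay at tRNA gene boundaries. TrnQ, TrnA and TrnP sites were 3 bases past the 3′ end of their own tRNA. The TrnH site was 2 bases into mt-Th and 4 bases past mt-Nd4, a subunit gene of respiratory complex I, and the TrnN site was 3 bases past mt-Tc. The TrnY and TrnE sites were at the 5′ end of their tRNA. The cluster counted as TrnH was 5647 bases wide and that of TrnP 1962 bases wide, so their reads come from more than the tRNA.

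The 8 libraries held 2311242 to 3549156 counted reads. Summed markers of skeletal muscle (Acta1, Ckm, Myh4, Tnnt3 and Mylpf) reached 35799 to 84255 RPM (reads scaled to a library total of 1000000), erythroid markers 477 to 964, fibroblast markers 937 to 12422, adipocyte markers 13.9 to 165, macrophage markers 12.5 to 79.2 and the 1 neuron marker found 5.45 to 125. Fibroblast markers were at 6863 or more in every AMPKα1 library and between 937 and 1421 in every AMPKα2 library. Prkaa1, the AMPKα1 gene, had 0 and 82 reads in AMPKα1 KO mice and 15 and 0 in their WT mice, and Prkaa2, the AMPKα2 gene, had 40 and 71 reads in AMPKα2 KO mice and 87 and 62 in their WT mice. The study places both deletions in the sequence that codes for the catalytic domain, and these reads come from 3′ ends, so they do not check the labels.

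Nuclear small RNA sites were nearly empty in the AMPKα1 libraries and well covered in the AMPKα2 libraries. The 255 nuclear sites took 0.0122% to 0.0229% of all counted reads in the 4 AMPKα1 libraries and 3.41% or more in each of the 4 AMPKα2 libraries, and the exact binomial intervals of the 2 sets of libraries did not touch. No read fell on 218 of them in any AMPKα1 library, so these 218 were counted only through their AMPKα2 reads. Among APSs with at least 16 reads in the AMPKα2 libraries, 218 of 254 small RNA APSs (85.8%) had no AMPKα1 read, against 30.6% of all 23218 such APSs. It was 27.5% for protein coding genes, 43.2% for lncRNA genes and 28.6% for pseudogenes. Reads on these APSs were also fewer in AMPKα1 than in AMPKα2 for lncRNA genes (134807 against 758506) and pseudogenes (291738 against 1684136). For protein coding genes they were more (9652927 against 5492211). The share was 29 of 29 for box H/ACA, 46 of 52 for box C/D, 77 of 82 for nuclear tRNA, 57 of 69 for miRNA, 4 of 8 for snRNA, 2 of 2 for Y_RNA and 0 of 2 for scRNA, whose 2 APSs had 2 AMPKα1 reads in all. The intervals cover counting error only, and since the model cannot be told apart from age or strain, no test of the model was made.

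Rn7sk, the 7SK RNA that holds the elongation factor P-TEFb inactive, had 11377 and 20166 reads in AMPKα2 KO mice, 20764 and 15682 in AMPKα2 WT mice, and 0, 0, 1 and 0 in the AMPKα1 libraries. Rnu3a, the U3 RNA of ribosomal RNA processing, had 4204 and 4039 reads in AMPKα2 KO mice, 10522 and 5997 in their WT mice, and 0, 0, 3 and 0 in AMPKα1. Rn7s1, a 7SL RNA of the signal recognition particle, had 4036 and 5033 reads in AMPKα2 KO mice, 5884 and 2721 in WT mice, and 0, 0, 0 and 1 in AMPKα1. Each of these RNAs had at least 2721 reads in every AMPKα2 mouse and at most 3 in any AMPKα1 mouse.

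Rny3, a Y RNA bound by the Ro protein, had 1570 to 3534 reads in the AMPKα2 libraries and 0 in all 4 AMPKα1 libraries, where the limit that a count of 0 allows was 0.874 to 1.30 RPM. Rny1, Snora7a and n-TAtgc10, an alanine tRNA gene, were also at 0 in all 4. Mir6236, the nuclear member with the most reads, had 37078 and 30102 in AMPKα2 KO mice, 53061 and 34141 in AMPKα2 WT mice, and 0, 42, 0 and 0 in AMPKα1. Structured RNAs outside the chosen biotypes had the same pattern. RNase MRP RNA, RNase P RNA and 7 sites of small Cajal body guide RNAs had 1 AMPKα1 read and 152373 AMPKα2 reads in all.

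**Figure D2:**
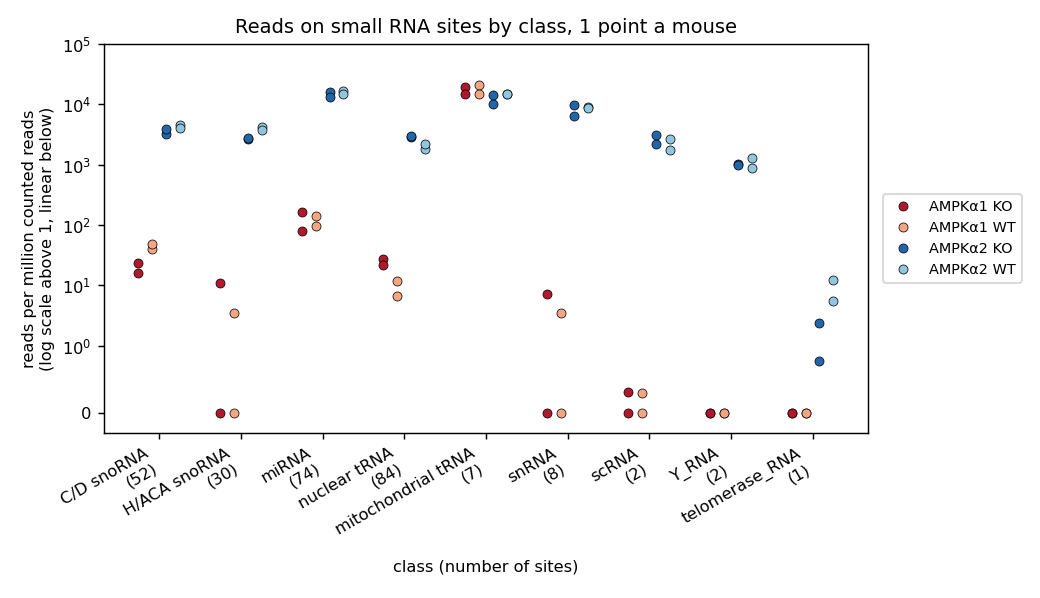
RPM (y axis, logarithmic above 1) summed over the sites of each class (x axis, number of sites in parentheses), with 1 point per mouse coloured by group. Mitochondrial tRNA sites lie between 10112 and 20771 RPM in all 8 mice, and every other class is lower in each AMPKα1 mouse than in any AMPKα2 mouse.

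The sum over the mitochondrial tRNA sites was the exception, and TrnH, whose site was 4 bases past mt-Nd4, held most of its reads in every library. TrnH had 59816 and 43512 reads in AMPKα1 KO mice, 44438 and 48046 in AMPKα1 WT mice, 15013 and 20667 in AMPKα2 KO mice and 32237 and 21713 in AMPKα2 WT mice. TrnP went the other way, with 2654 to 5044 reads in the AMPKα1 libraries and 8402 to 16914 in the AMPKα2 libraries. All 7 mitochondrial sites had at least 16 reads in both models, and together they made up 1.71% ± 0.28 of reads in the KO mice and 1.79% ± 0.41 in the WT mice of the AMPKα1 model (mean ± SD, n = 2 each). In the AMPKα2 model their share was 1.23% ± 0.31 for KO and 1.48% ± 0.01 for WT (n = 2 each).

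Among nuclear sites with at least 16 AMPKα2 reads, 146 of 158 within 10 bases of the gene end had no AMPKα1 read, as had 65 of 72 that were 11 to 100 bases away and 1 of 10 that were further away. The last group is small. Sites with fewer AMPKα2 reads are in the table only through their AMPKα1 reads, since it holds APSs with at least 16 reads in all, and they were left out of these counts. There were 12 small RNA genes with more than 1 APS (25 APSs in all). Mirlet7d had 451, 614, 564 and 476 AMPKα2 reads and no AMPKα1 read at the let-7d-5p end, and 31 AMPKα1 reads against 14 AMPKα2 reads 487 bases past the hairpin. Snora65 had 38 to 70 reads per AMPKα2 library and none in AMPKα1 at a site 6 bases past its RefSeq end, and 0, 36, 8 and 0 AMPKα1 reads at a site 1075 bases past that end. Both distal sites reached 16 reads only with their AMPKα1 reads. Snord13 was a box C/D gene with end-site reads in every library, with 53 and 33 in AMPKα1 KO mice, 17 and 23 in AMPKα1 WT mice, 476 and 444 in AMPKα2 KO mice and 286 and 168 in AMPKα2 WT mice. In all, 10 of the 262 sites had a read in every library.

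In the AMPKα2 model, no small RNA site passed the test of KO against WT. Of 254 sites tested, 0 had a Benjamini-Hochberg adjusted p under 0.1 by edgeR's quasi-likelihood test, where 0.056% of all 23218 APSs tested did (0.0258% higher and 0.0301% lower). At an unadjusted p under 0.05 there were 12 higher and 14 lower in KO, or 4.72% and 5.51% of the 254, against 5.12% and 2.49% of all APSs (7.6% in either direction). DESeq2 called 1 site, Snord13, as higher, among 96 APSs in all. EdgeR called 3 sites, all lower, when AMPKα2 WT replicate 1 was left out (76 APSs in all), 2 lower with library totals (45 in all), and 4 higher and 5 lower without the filter (557 in all). The median log2 fold change (KO over WT) was 0.04 over the 254 sites and 0.01 over all APSs.

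The classes had different medians in the AMPKα2 model, given here as a description. The median log2 fold change was -0.41 for 29 box H/ACA sites, of which 24 were below 0, and -0.21 for 52 box C/D sites, of which 33 were below 0. It was 0.24 for 69 miRNA sites, of which 49 were above 0, and 0.29 for 82 nuclear tRNA sites, of which 51 were above 0. The miRNA median is also 0.24 with the 3 sites that had no KO read placed at their bounds. Each of these 4 medians kept its sign under every scaling and filter tried with all 4 libraries. With 1 library left out, the nuclear tRNA median was -0.045 without KO replicate 1, 0.055 without WT replicate 1, 0.49 without WT replicate 2 and 0.58 without KO replicate 2. The miRNA median ranged from 0.054 without KO replicate 1 to 0.40 without KO replicate 2, the box H/ACA median from -0.70 to -0.17 for the same libraries, and the box C/D median from -0.34 without KO replicate 1 to -0.084 without WT replicate 2. KO and WT libraries did not overlap, with KO lower, for 13 of the 29 box H/ACA sites (44.8%) and 17 of the 52 box C/D sites (32.7%), where 20.9% of all APSs tested did so. With KO higher they did not overlap for 20 of the 69 miRNA sites (29.0%) and 19 of the 82 nuclear tRNA sites (23.2%), where 18.8% of all APSs did so.

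Summed over the class, box H/ACA sites reached 2690 ± 82.9 RPM in AMPKα2 KO mice and 3989 ± 393 in WT mice, and nuclear tRNA sites 2926 ± 132 and 1983 ± 257 (SD, n = 2). In each class the KO and WT mice did not overlap, and the two-sided exact permutation p was 0.333, the smallest that 2 mice against 2 allow. Box C/D sites reached 3597 ± 459 and 4269 ± 322 RPM, with an exact permutation p of 0.333 as well. The miRNA sum was 14451 ± 1813 RPM in KO and 15457 ± 1229 in WT mice (exact permutation p = 0.667), so that it was lower in KO while the median log2 fold change of the miRNA sites was above 0. This sum mostly follows 1 site, Mir6236, which held 154382 of the 169650 reads on miRNA sites with at least 16 AMPKα2 reads. The mitochondrial sum was 12323 ± 3127 RPM in KO and 14811 ± 93.4 in WT mice (exact permutation p = 0.333).

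**Figure D3:**
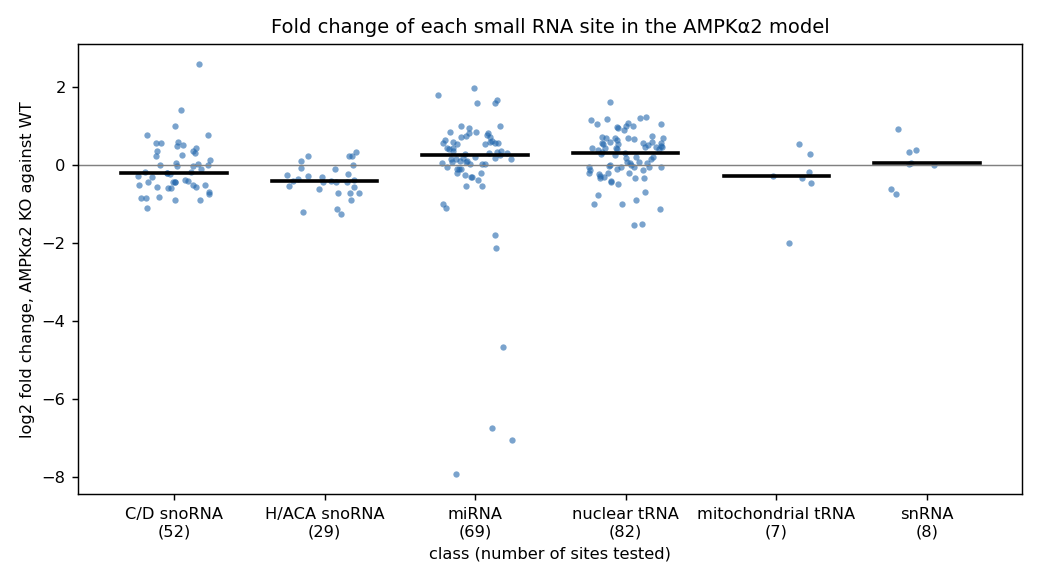
Log2 fold change of each tested site in AMPKα2 KO against WT (y axis) by class (x axis), with 1 point per site and a bar at the class median. The bars of box C/D and box H/ACA snoRNAs are below 0 and those of miRNAs and nuclear tRNAs above it, and the 3 lowest points are fitted values of miRNA sites with no KO read.

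Among snoRNAs, Snord93, a box C/D RNA in an intron of the non-coding gene 2700038G22Rik, had 31 and 50 reads in AMPKα2 KO mice and 12 and 5 in WT mice. Both KO mice were above both WT mice. As TMM-scaled CPM, which differ from RPM by a scaling factor per library, this was 15.9 ± 0.69 against 2.59 ± 0.72 (SD, n = 2), and the log2 fold change was 2.57 (SE 0.47, adjusted p = 0.333 by edgeR).

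Snord13, the U13 RNA that acts in 18S ribosomal RNA processing, had 191 ± 64.3 CPM in AMPKα2 KO mice and 71.9 ± 2.86 in WT mice. The mice did not overlap, and the log2 fold change was 1.41 (SE 0.36, adjusted p = 0.506 by edgeR). In the AMPKα1 model the log2 fold change of this site was 0.46 (SE 1.89), with overlapping mice on the CPM scale.

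Box H/ACA RNAs guide pseudouridylation. Snora81 had 37 and 43 reads in AMPKα2 KO mice and 140 and 99 in WT mice, with no overlap, and its log2 fold change was -1.26 (SE 0.37, adjusted p = 0.603 by edgeR). Snora7a had 567 ± 98.0 CPM in KO mice and 771 ± 41.0 in WT mice at its end site, a log2 fold change of -0.45 (SE 0.31, adjusted p = 0.738 by edgeR). Terc, the telomerase RNA, which also carries an H/ACA domain, had 6 and 2 reads in KO mice and 44 and 14 in WT mice. Its mice did not overlap, and at these low counts the log2 fold change was -2.35 (SE 0.76, adjusted p = 0.608 by edgeR).

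The muscle miRNA genes Mir206, Mir1a-1, Mir1a-2, Mir133a-1, Mir133a-2 and Mir486 had sites in the AMPKα2 libraries, and none had an AMPKα1 read. Mir206 had 88 and 140 reads in AMPKα2 KO mice and 130 and 114 in WT mice, and Mir1a-2 had 148 and 125 against 135 and 122. In both of these genes the KO and WT mice overlapped. Mir1a-1 had 47 and 84 reads in KO mice and 54 and 28 in WT mice, which is 25.4 ± 2.94 against 12.8 ± 1.63 CPM. On the CPM scale its mice did not overlap, with a log2 fold change of 0.98 (SE 0.38, adjusted p = 0.629 by edgeR). Mir133a-2, which lies near Mir1a-1, had 37.3 ± 2.74 against 21.0 ± 14.4 CPM. Mir133a-1 and Mir486 had at most 19 reads in any library. Reads that match both genes of the Mir1a or the Mir133a pair cannot be told apart.

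In the miR-23a cluster, Mir23a had 88 and 77 reads in AMPKα2 KO mice and 26 and 32 in WT mice. Both KO mice were above both WT mice, and the log2 fold change was 1.79 (SE 0.49, adjusted p = 0.562 by edgeR). The Mir27a site beside it had 3 and 6 reads in KO mice and 8 and 4 in WT mice, and the 5p site of Mir24-2 had 8 and 4 against 6 and 3, so both overlapped. Further Mir24-2 sites lay 692 and 1934 bases past the hairpin, with 66 and 32 AMPKα1 reads and 25 and 0 AMPKα2 reads.

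Mir142, a miRNA gene of blood cells, had a site near the 5p start with 0 and 0 reads in AMPKα2 KO mice and 31 and 8 in WT mice, and a site 344 bases past the hairpin with 0 and 0 against 52 and 18. At the distal site KO was at least 19.6-fold lower and at the near site at least 10.9-fold lower, taking 3 reads over the KO group as the floor. The adjusted p-values by edgeR were 0.250 and 0.440. The macrophage markers Cd68 and Lyz2 summed to 35.6 and 49.8 RPM in the KO mice and 40.1 and 79.2 in the WT mice, and their part in the result was not tested. In AMPKα1 the distal site had 0 and 163 reads in KO mice and 3 and 5 in WT mice, so 1 KO mouse carried nearly all reads.

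**Figure D4:**
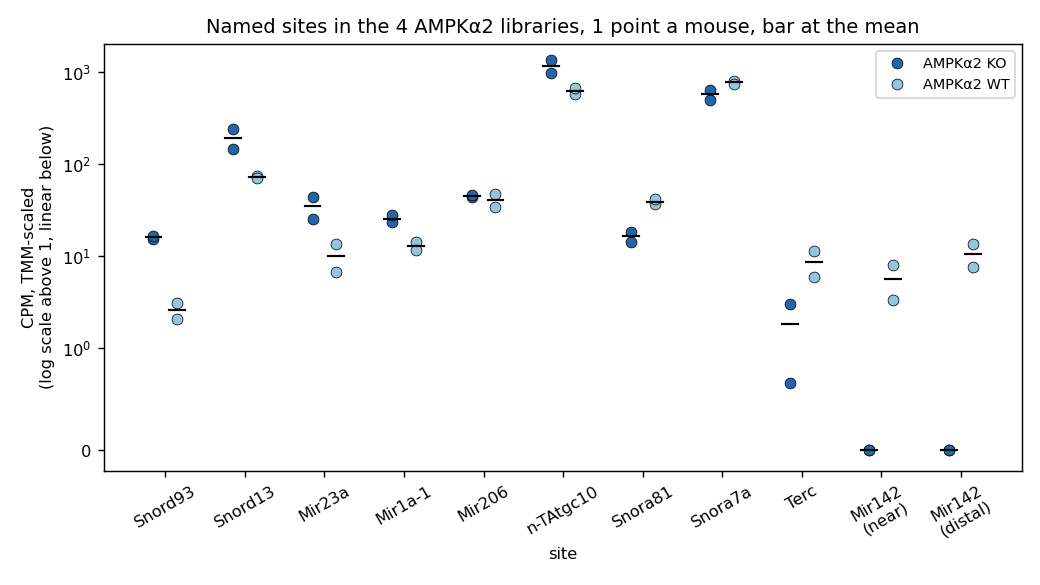
CPM (y axis, logarithmic above 1) of 11 named sites in the 4 AMPKα2 libraries (x axis), with 1 point per mouse and a bar at the group mean. KO and WT points are apart for every site shown except Mir206, and KO is at 0 for both Mir142 sites. Most of the sites shown were picked for their low p. Over all APSs tested, 18.8% did not overlap with KO higher and 20.9% with KO lower.

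Of the remaining sites with the lowest p-values in AMPKα2, Mir6538 had 63 and 48 reads in KO mice and 21 and 23 in WT mice, a log2 fold change of 1.65 (SE 0.51, adjusted p = 0.603 by edgeR). The glycine tRNA gene n-TGtcc3 had 17 and 20 reads against 9 and 6, with 1.61 on the log2 scale (SE 0.54, adjusted p = 0.626 by edgeR). Mir7669 had 70 and 168 reads in KO mice and 448 and 191 in WT mice, a log2 fold change of -1.12 (SE 0.38, adjusted p = 0.626 by edgeR). TrnY had 3 and 6 reads against 24 and 20, with -2.01 on the log2 scale (SE 0.59, adjusted p = 0.603 by edgeR). In each of the 4 the KO and WT mice did not overlap on the CPM scale, which 18.8% (KO higher) and 20.9% (KO lower) of all APSs share, and these sites were picked for their low p.

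None of the most abundant members passed the test. Log2 fold changes in AMPKα2 were 0.02 for Mir6236, 0.04 for Rn7sk, 0.07 for Rn7s2, 0.09 for Rny3, 0.46 for Rn7s1, -0.20 for TrnP, -0.29 for TrnH and -0.61 for Rnu3a, each with an SE between 0.31 and 0.38. On the CPM scale KO and WT mice did not overlap for Rn7s1, TrnP, TrnH and Rnu3a and overlapped for the other 4, where over all APSs 18.8% did not overlap with KO higher and 20.9% with KO lower. N-TAtgc10 had 1144 ± 259 CPM in KO mice and 619 ± 63.0 in WT mice, a log2 fold change of 0.89 (SE 0.32, adjusted p = 0.629 by edgeR).

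In the AMPKα1 model, 29 small RNA sites had enough reads to be tested, 7 of them mitochondrial and 13 of the other 22 more than 100 bases from their gene. By edgeR 0 of the 29 passed an adjusted p of 0.1, where 0.00454% of all 44024 APSs did, and DESeq2 called 0. At an unadjusted p under 0.05 there was 1 site, TrnQ, which was lower, or 3.45% of the 29 against 2.38% of all APSs (3.07% in either direction). KO and WT libraries did not overlap for 1 site with KO higher (3.45%, against 9.02% of all APSs) and 5 sites with KO lower (17.2%, against 18.2%). TrnQ had 529 and 596 reads in KO mice and 734 and 732 in WT mice, so KO was lower in both, with a log2 fold change of -1.10 (SE 0.51, adjusted p = 0.543 by edgeR), which became -0.67 with library totals, -0.50 without WT replicate 1 and -1.51 without WT replicate 2. In the AMPKα2 model TrnQ had 744 and 862 reads in KO mice and 1536 and 1196 in WT mice, with a log2 fold change of -0.46 (SE 0.32, adjusted p = 0.741 by edgeR). TrnH had a log2 fold change of -0.54 (SE 0.32, adjusted p = 0.543 by edgeR) in AMPKα1, with overlapping mice, and it became -0.12 with library totals, -0.018 without WT replicate 1, -0.91 without WT replicate 2 and -0.36 without KO replicate 2.

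Replicate mice of the AMPKα1 model differed widely at these sites. Snord22, at a site 455 bases past the gene, had 0 and 30 reads in KO mice and 60 and 133 in WT mice. Mir7669 had 90 and 136 reads in KO mice and 97 and 330 in WT mice. Mir132 had 56 reads in 1 KO mouse and none in the other 3 libraries, a Mir742 site 37 reads in 1 KO mouse and none in the other 3, a Trnad-guc site 37 in the other KO mouse alone, and Mir146 50 in 1 WT mouse alone. Each of these last 4 counts rests on 1 mouse. The biological coefficient of variation over all APSs was 156% in this model and 38.8% in AMPKα2.

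A test of whether the KO effect differed between the models, over all 8 libraries, called 0 of the 262 sites by edgeR at an adjusted p under 0.1, where 0.143% of all 56483 APSs were called. It cannot decide the question for the 218 sites with no read in any AMPKα1 library, where no AMPKα1 KO effect can be estimated. At an unadjusted p under 0.05 there were 7 sites (2.67%, against 6.96% of all APSs), and DESeq2 called 1. When 1 AMPKα1 library was left out, edgeR called 4 sites without KO replicate 1, 2 without KO replicate 2, and 1 without either WT replicate, where 1198, 995, 60 (without WT replicate 1) and 203 of all APSs were called.

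Host genes were found for 138 sites, and 112 of them lay in 85 host genes that have APSs of their own in the table. Among the 112 sites, 28 were snoRNA sites in ribosomal protein genes. In the AMPKα2 libraries the small RNA site held a median of 42.0% of the reads of site and host together. In 49 of the 112 it held more reads than all APSs assigned to the host gene. Host reads that were placed on other copies of a gene, such as pseudogenes, are not in these sums, and their number was not tested. In the AMPKα1 libraries that median was 0%, and the site exceeded the host in 1 of 112. Of the 103 host-gene sites with no AMPKα1 read, which are counted only through their AMPKα2 reads, 97 lay in hosts with at least 16 AMPKα1 reads. For example, Rpl32, the ribosomal protein gene that holds Snora7a, had 3144 AMPKα1 and 501 AMPKα2 reads, and Ank1, the ankyrin gene that holds Mir486, had 3899 and 1440. Other hosts had fewer AMPKα1 than AMPKα2 reads, such as Nop56, the host of Snord57 (264 against 5008), and Gas5, the host of Snord47 (1245 against 32599).

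**Figure D5:**
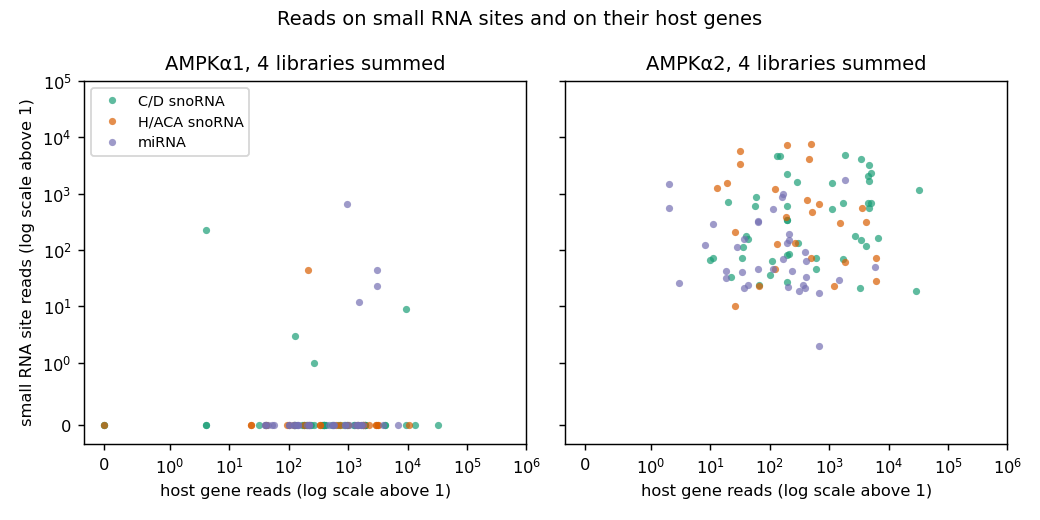
Reads on each snoRNA or miRNA site (y axis) against reads on its host gene (x axis), both logarithmic above 1, summed over the 4 AMPKα1 libraries (left) or the 4 AMPKα2 libraries (right), with 1 point per site. In AMPKα1 nearly all points lie at 0 reads on the y axis while their hosts have reads.

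Of 78 host genes tested at the gene level in AMPKα2, edgeR called 0 higher and 1 lower in KO, where 0.37% and 0.313% of 10552 genes were called. The 1 gene, named here after its values were seen, was Rpl3, a ribosomal protein gene that holds Snord83b. It had 1 and 0 reads in KO mice and 202 and 86 in WT mice, or 0.413% of the WT level in KO (exact 95% counting interval 0.0104% to 2.32%), with an adjusted p of 0.000379 by edgeR. That call was absent when all 8 libraries were fitted together. Snord83b itself had a log2 fold change of -0.41. Eif4a2, the translation factor gene that holds Snora81, had 639 and 673 reads in KO mice and 1767 and 1015 in WT mice, with a log2 fold change of -0.57 (SE 0.27, adjusted p = 0.606 by edgeR). Rnf144a, the host of Mir6538, had 3 and 5 reads against 19 and 9, a log2 fold change of -1.33 where that of the miRNA site was 1.65. In AMPKα1, 79 host genes were tested and 0 were called by edgeR, as were 0 of all 13941 genes. At an unadjusted p under 0.05, 0 host genes were higher and 3 lower in KO, where 1.37% and 2.84% of all genes were. DESeq2 called 1 host gene of 124 genes in all, and edgeR 2 of 83 in all when the 8 libraries were fitted together.

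Genes that make or trim small RNAs were tested as 6 lists, which held 53 genes with APSs in the table. In AMPKα2, 38 were tested and edgeR called 0 in either direction, with a lowest adjusted p of 0.300. At an unadjusted p under 0.05, 1 was higher and 1 lower (of all genes, 4.85% and 3.7%). The higher gene was Lsm5, part of the ring that binds the U6 RNA end, with 14 and 18 reads in KO mice and 6 and 6 in WT mice. The lower gene was Ints7, an Integrator subunit, with 2 and 1 reads against 12 and 11. Drosha, which cuts the primary miRNA, had 59 and 100 reads against 86 and 94, and Nop56, a core protein of box C/D particles, had 805 and 894 against 2075 and 1234, with a log2 fold change of -0.46 (SE 0.27, adjusted p = 0.667 by edgeR). DESeq2 also called 0 of these genes, and edgeR called 1 lower when AMPKα2 KO replicate 2 was left out, among 100 genes called in all.

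In AMPKα1, 50 processing genes were tested and edgeR called 0, with a lowest adjusted p of 0.763. At an unadjusted p under 0.05 (1.37% of all genes higher and 2.84% lower), Nop10, an H/ACA protein, was higher with 3663 and 2593 reads in KO mice and 392 and 1621 in WT mice, and Nhp2, another H/ACA protein, was lower with 40 and 32 reads against 91 and 146. Their log2 fold changes were 1.36 (SE 0.50) and -2.18 (SE 0.73). Reads in all 4 AMPKα1 libraries were found for Dkc1, the pseudouridine synthase of H/ACA particles, with 118 to 411 reads per library, Papd5, a poly(A) polymerase that adds short tails, with 52 to 340, and Ssb, the La protein, with 170 to 385. Other genes of the lists ranged from well covered to empty. Tnrc6b, on the miRNA processing list, had 538 to 1093 reads per library and Lsm6 289 to 1392, whereas some genes had few or none. Lsm5 had 0 reads in all 4, and in WT replicate 1 alone Toe1 had 29, Prkra 19 and Tut1 12.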

How the data were processed

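WTTS-seq libraries of gastrocnemius muscle were sequenced on an Ion PGM. The deposited table holds raw read counts per APS and library, which the authors made by quality filtering with the FASTX Toolkit 0.0.13.1, trimming of leading Ts, mapping of reads of at least 16 bases with TMAP 3.4.1 (GRCm38.p5 by the submitters' processing notes), taking the first base of the read as the site, clustering in a window of 24 nucleotides, assignment to genes with Cuffcompare 2.2.1 and a minimum of 16 reads over the 8 libraries. Poly(A)+ enrichment with oligo(dT) beads and size selection of cDNA affect how short RNAs are counted. The study used DESeq2 with an adjusted p under 0.1.

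From these counts, each KO was set against the WT of its own model with the quasi-likelihood test of edgeR (edgeR 4.0.16, R 4.3.3, TMM scaling, robust fit, at least 16 reads over the 4 libraries, Benjamini-Hochberg adjustment over all APSs tested, threshold 0.1). Gene values were sums over APSs. The interaction used all 8 libraries. DESeq2 1.42.0, other scalings and filters, a replicate block and each library left out were alternatives. Scripts were tested on simulated data with 200 well covered APSs changed in each run. At 4-fold, edgeR recovered 0 of them in AMPKα1 and 93 in AMPKα2, with 0 and 18 false calls. At 16-fold it recovered 56 and 200, with 6 and 35 false calls. Gene spans came from RefSeq GRCm38.p6, and from GENCODE for 8 sites. A host gene was the smallest GENCODE gene, other than a small RNA gene, on the same strand whose span holds the small RNA gene. Named sites were the 5 with the lowest p per model and direction, fixed muscle miRNA genes, the 10 most abundant, the leading ones of each rare class, Snord13, genes with more than 1 APS, and the hosts of the first groups. The members and lists were chosen with earlier results of these data known. The libraries held 2311242 to 3549156 reads, so that 3 reads correspond to 0.845 to 1.30 RPM. No sample was left out.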

Additional observations from a re-analysis of the deposited data

How the results depend on the processing

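The count of small RNA sites called in AMPKα1 was 0 in every alternative run. In AMPKα2, where the main count was 0, it was 1 with DESeq2, 2 with library totals, 9 without the filter, 0 to 3 when 1 library was left out, 8 with the replicate block and 0 in the other alternatives. Over all APSs the count of 2 in AMPKα1 was 218 with DESeq2, 49 with library totals and 432 with all 8 libraries, and the count of 13 in AMPKα2 was 96, 45 and 7, with 557 without the filter. Scaling moved the median log2 fold change of all AMPKα1 APSs from 0.02 to 0.15 with median-ratio size factors and 0.38 with library totals. The replicate block gave 3 higher and 5 lower small RNA sites and 520 APSs, but same-numbered mice did not deviate together (correlation of replicate differences 0.01 in AMPKα1 and 0.03 in AMPKα2), so the samples share only a number. For host genes the count moved from 0 to 1 with DESeq2 and 2 with all 8 libraries in AMPKα1, and from 1 to 2 with library totals, 2 without the filter and 0 with all 8 libraries in AMPKα2. Processing genes called in AMPKα2 were 0 to 1 with 1 library left out. The interaction count was 1 with DESeq2 and 0 to 4 with 1 library left out.

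In AMPKα1 all 67 values of 10 named sites from alternatives with all libraries kept direction and call. In AMPKα2, 178 of 197 values of 29 sites did, 16 gained a call, and 3 reversed, to -0.044 for Rny3 with library totals and to -0.12 with library totals and -0.052 with the block for Mir6236. With 1 library left out the log2 fold change reversed for these sites: Mir206 (-0.10 to 0.40), Rny3 (-0.31 to 0.41), Mir486 (-0.25 to 0.44), Mir27a (-0.24 to 0.054), Mir6236 (-0.50 to 0.40), Rn7sk (-0.11 to 0.18), Rn7s2 (-0.16 to 0.28), Mir133a-1 (-0.081 to 1.45) and Mir1a-2 (-0.059 to 0.79). The share of reads on small RNA sites moved, without TrnH, from 1.73% and 1.81% to 0.191% and 0.147% (AMPKα1 KO, WT) and from 4.77% and 5.27% to 4.08% and 4.40% (AMPKα2 KO, WT), and the latter pair to 5.70% and 6.37% over gene-assigned reads. Within 100 bases of the gene end lay 93.7% of sites. The causes were not tested. With 2 mice per group and zero counts at most AMPKα1 sites, differences between AMPKα1 KO and WT were not detectable at most members.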
